A study of Mus musculus with 12 samples.

Results

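The transcriptome described here is that of premalignant pre-B cells from Eµ-Myc mice with wildtype Smchd1, read from the 6 samples titled wildtype of the 12 samples in the series. All 6 carried the Eµ-Myc transgene, in which the immunoglobulin heavy chain enhancer drives Myc in B-lineage cells, on the C57BL/6 background; the other 6 samples, which are null for Smchd1 through a gene-trap allele, enter here only through the joint normalisation. Sorted cells from freshly harvested mice gave the RNA, and 1 Illumina mouse BeadChip array was used per sample. The labels give no age, sex, tissue or sort markers and do not say whether a sample was 1 mouse, so the spread given below is that between these samples. Wildtype 1, 2 and 3 lay on BeadChip 1 and wildtype 4, 5 and 6 on BeadChip 2. A probe was counted as part of the expressed genome when its detection p, computed by the scanner software against negative control probes, was under 0.05 on all 6 arrays. This held for 13711 of 45281 probes, or 30.3%, which stand for 9469 of 28888 gene symbols, or 32.8%. The level of a probe is its normalised intensity on the log2 scale, averaged over the 6 arrays, and its spread is the SD between them. Of the genes taken to mark pre-B cells, Cd79b, Vpreb1, Igll1, Rag1, Ebf1 and Il7r were detected on all 6 arrays, Pax5 was detected on 4, and Cd79a had no matching row.

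Pre-B cells are the stage of B-cell development at which the heavy chain of immunoglobulin has been assembled and the light chain has not. The µ heavy chain (Ighm) then pairs with a surrogate light chain, made of Vpreb1 and Igll1, and signals through Cd79a and Cd79b, and this pre-B receptor drives a burst of division that ends before the Rag recombinase opens the kappa light chain locus. Myc is a transcription factor that binds DNA with its partner Max at the hexamer called the E-box and raises genes of ribosome assembly, nucleotide synthesis and metabolism. In Eµ-Myc mice the pre-B compartment is known to be enlarged and cycling before lymphoma appears.

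Promoter sequence around the start sites of the expressed genes was taken from RefSeq (GRCm38.p6), each window running from 250 bases before to 50 bases after an annotated start. The table held a promoter for 6457 genes with a probe on all 6 arrays (8239 promoters) and for 7146 genes with probes on no array (8361 promoters). Of the expressed promoters 70.4% were rich in CpG (observed over expected CpG of at least 0.6 and a GC content of at least 50%), against 28.5% of those of genes on no array and 33.5% of all 32851 promoters. The E-box hexamer CACGTG, which reads the same on both strands, was held by 10.6% of expressed promoters, 6.39% of those on no array and 7.15% of all. A TATA hexamer (TATAAA on either strand) was held by 6.87% of expressed promoters, 16.7% of those on no array and 13.6% of all. The sequence CCCNNGGG, which reads the same on both strands and is a core of the site bound by the B-lineage factor Ebf1, was held by 17.4% of expressed promoters, 14.7% of those on no array and 13.7% of all. CpG content differed between these sets, CACGTG and CCCNNGGG are rich in C and G, and the part of base content in the motif shares was not tested.

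**Figure D1:**
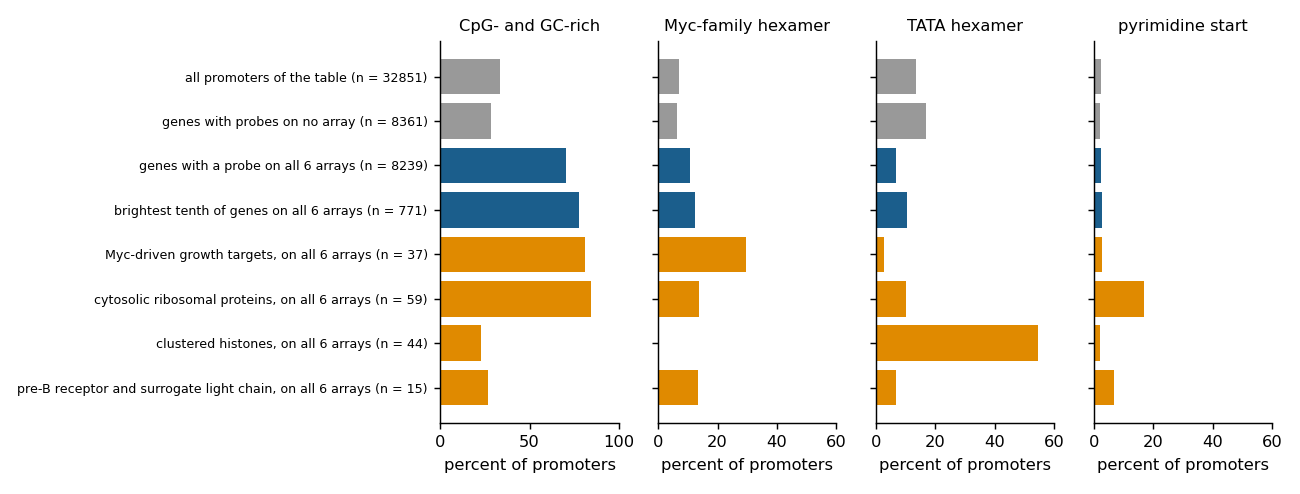
Percent of RefSeq promoters that hold each of 4 sequence features, for all promoters, for genes by their detection on the 6 wildtype arrays and for 4 gene lists, with the number of promoters in each. CpG-rich promoters make up 70.4% of the expressed set, the Myc-family hexamer CACGTG is most frequent in the Myc-driven growth targets (29.7%), the TATA hexamer in clustered histones (54.5%) and a pyrimidine start in ribosomal protein genes (16.9%).

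Of genes known as growth targets of Myc, 26 with a probe on all 6 arrays had a promoter in the table, and 8 of them held CACGTG in at least 1 promoter (11 of 37 promoters, 29.7%). The 6 brightest are printed to show the E-box, in capitals, beside the bases around it. They lie in Nme1 at chr11:93968027-93968076 (minus strand), Ldha at chr7:46845734-46845783 (plus strand), Eif5a at chr11:69920781-69920830 (minus strand), Hspd1 at chr1:55088296-55088345 (minus strand), Cdk4 at chr10:127063502-127063551 (plus strand) and Nop2 at chr6:125131801-125131850 (plus strand). The hexamer began 29 bases before the start of Nme1, 48 before that of Ldha, 178 before that of Eif5a, 80 before that of Hspd1, 11 before that of Cdk4 and 60 before that of Nop2.
Nme1: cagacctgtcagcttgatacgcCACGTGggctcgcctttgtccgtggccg
Ldha: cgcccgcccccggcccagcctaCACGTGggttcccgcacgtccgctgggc
Eif5a: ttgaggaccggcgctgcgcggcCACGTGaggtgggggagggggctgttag
Hspd1: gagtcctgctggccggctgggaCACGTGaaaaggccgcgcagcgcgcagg
Cdk4: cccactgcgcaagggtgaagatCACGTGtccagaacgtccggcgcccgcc
Nop2: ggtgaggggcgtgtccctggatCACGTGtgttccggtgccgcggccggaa
Of clustered histone genes, 24 of 43 with a promoter held a TATA hexamer (24 of 44 promoters, 54.5%), and 0 of 44 held CACGTG. The 4 brightest with TATAAA near the start are printed with that hexamer in capitals, from H2ac20 at chr3:96220882-96220937 (minus strand), H2ac22 at chr13:21787241-21787296 (minus strand), H2ac21 at chr3:96219840-96219895 (plus strand) and H3c10 at chr13:21717582-21717637 (plus strand). It began 42, 33, 30 and 31 bases before the start in that order.
H2ac20: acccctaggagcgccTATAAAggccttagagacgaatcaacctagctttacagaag
H2ac22: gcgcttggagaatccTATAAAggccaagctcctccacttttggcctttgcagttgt
H2ac21: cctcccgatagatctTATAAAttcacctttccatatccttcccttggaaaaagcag
H3c10: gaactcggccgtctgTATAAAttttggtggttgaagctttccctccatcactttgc
Of cytosolic ribosomal protein genes, 10 of 50 had a start at a C followed by at least 4 pyrimidines (10 of 59 promoters, 16.9%, against 2.51% of all promoters), the sequence with which messages of the translation machinery are known to begin. The 4 brightest are printed with the pyrimidine run from the first transcribed base in capitals, from Rps6 at chr4:86857347-86857392 (minus strand), Rps21 at chr2:180257354-180257395 (plus strand), Rpl35 at chr2:39005109-39005156 (minus strand) and Rplp2 at chr7:141447626-141447667 (plus strand).
Rps6: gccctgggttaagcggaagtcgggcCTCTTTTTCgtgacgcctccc
Rps21: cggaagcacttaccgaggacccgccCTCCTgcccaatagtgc
Rpl35: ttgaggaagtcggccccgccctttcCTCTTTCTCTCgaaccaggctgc
Rplp2: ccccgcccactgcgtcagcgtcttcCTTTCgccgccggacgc
The pyrimidine run was sought only from the annotated start, so a run beginning at any other base was not counted. A match is a run of letters and says nothing about whether a factor was bound.

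The levels of the expressed probes ran from 5.00 to 14.18, with a median of 7.82 and the middle of the distribution (the quartiles) between 6.35 and 9.45. Detection was close to all or none: 25994 probes (57.4%) were detected on 0 arrays, 13711 on all 6 and between 724 and 2180 on each number in between. Per array 15396 to 16434 probes were detected, mean raw intensity was 3.27 to 4.17 times the mean of the negative controls, and each probe was read by 40.9 to 43.1 beads on average. A probe's signal depends on how well it binds as well as on its transcript, so the order given here is one of signal. Among 2892 symbols with several expressed probes the levels of their probes differed by a median of 1.57, and 2290 symbols had a probe on all 6 arrays and another on none. The 20 probes whose worst array had the largest detection p under 0.05 (up to 0.0492) had a median level of 5.18, and the 20 just outside (from 0.0502) one of 5.25.

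**Figure D2:**
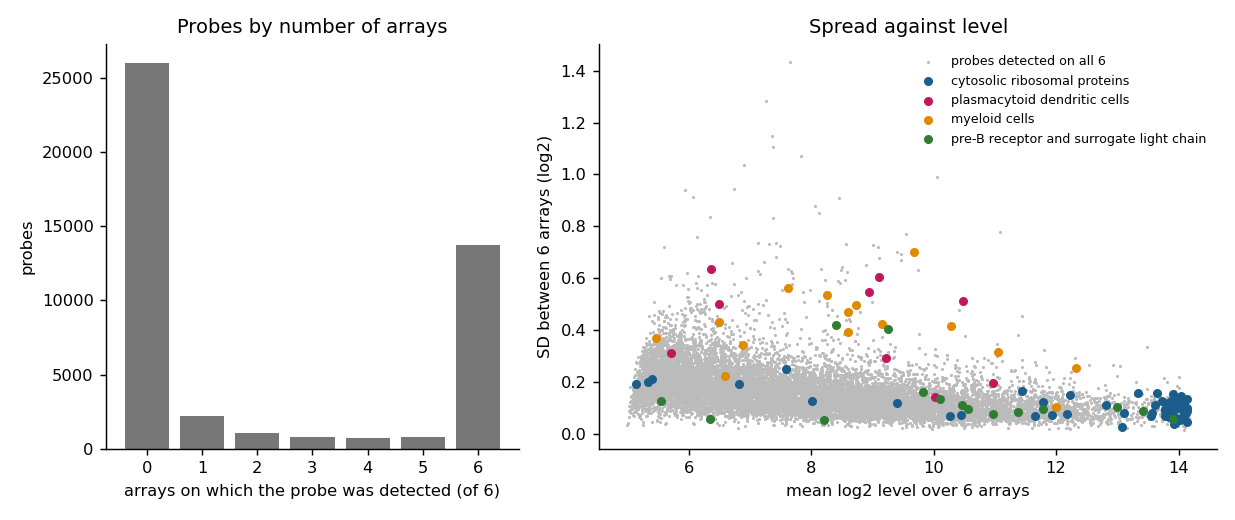
Left, number of probes by the number of wildtype arrays on which they were detected (bars). Right, SD between the 6 arrays against mean log2 level for every probe detected on all 6 (grey points), with 4 gene lists in colour, 1 probe per gene. Ribosomal protein genes gather near a level of 14 at low spread, and genes of plasmacytoid dendritic and myeloid cells lie above the bulk of the grey points.

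Ribosomal protein genes were the most frequent of the listed groups among the brightest probes. The 100 brightest probes had mean levels of at least 13.94 and gave 13.1% ± 0.0645 (SD, n = 6 arrays) of the summed signal. The 1000 brightest gave 56.9% ± 0.0367. Quantile normalisation gives every array nearly the same set of values, so these SDs are small by construction and do not measure spread between samples. Of the 100 brightest probes 26 belonged to cytosolic ribosomal proteins, 7 to clustered histones, 4 to translation factors and 2 to the respiratory chain list. A provisional name was all that 39 carried. The respiratory chain transcripts MTDNA_ND4, MT-CYTB and MTDNA_ND1, named below, were not all counted in that list. First in order stood Ybx1, an RNA- and DNA-binding protein, at 14.18 ± 0.06 (SD, n = 6 here and below), followed by the tubulin Tuba1b at 14.16 ± 0.05, the actin Actb at 14.16 ± 0.06 and the ATP synthase subunit Atp5b at 14.14 ± 0.12. The cytokine Mif (14.10 ± 0.07), the tubulin Tubb5 (14.12 ± 0.06), the initiation factor subunit Eif3f (14.11 ± 0.13), the nucleolar protein Npm1 (14.08 ± 0.07), the probe named EG668829 (14.08 ± 0.06) and the mitochondrial transcripts MTDNA_ND4 (14.09 ± 0.01), MT-CYTB (14.08 ± 0.06) and MTDNA_ND1 (14.08 ± 0.10) were also among the 20 named genes of highest level. The remaining 8 were the ribosomal protein genes Rpl18, Rpl31, Rps4x, Rps13, Rps9, Rpl27, Rps7 and Rps2, from 14.14 down to 14.09. The 20 brightest probes spanned 0.079 in mean level, about as much as their own median SD of 0.079, so their order was not resolved. Quantile normalisation assigns these top values from a shared distribution, which also narrows their spread.

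The machinery of protein synthesis was expressed nearly whole. Cytosolic ribosomal proteins had 64 of 71 genes on all 6 arrays, against 32.8% of all symbols, with a median level of 13.88 against 8.19 over the 9469 expressed genes, each by its brightest probe as in the lists. Of the 7 others, Rps4l and Rpl6 were detected on 4 arrays and Rpl3l, Rps23, Rpl39l, Rps20 and Rpl17 on 0. Mitochondrial ribosomal proteins had 70 of 76 genes on all 6 (median level 10.76) and translation factors 56 of 66 (10.58). Respiratory chain subunits, without some of those encoded in mitochondrial DNA, had 83 of 94 (11.72). Proteasome subunits had 32 of 39 (11.97) and spliceosome and hnRNP proteins 41 of 48 (11.69). The median SDs of these lists lay between 0.077 (proteasome) and 0.121 (translation factors), below the median of 0.138 over the 9469 genes. Spread fell with level over the whole array. Families of other tissues were nearly silent: 10 of 1087 olfactory receptors, 1 of 151 vomeronasal receptors and 2 of 53 keratins were on all 6 arrays, and 988, 139 and 39 of them on none. Zinc finger genes of the Zfp series stood between, with 166 of 335 on all 6 at a median level of 7.16.

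**Figure D3:**
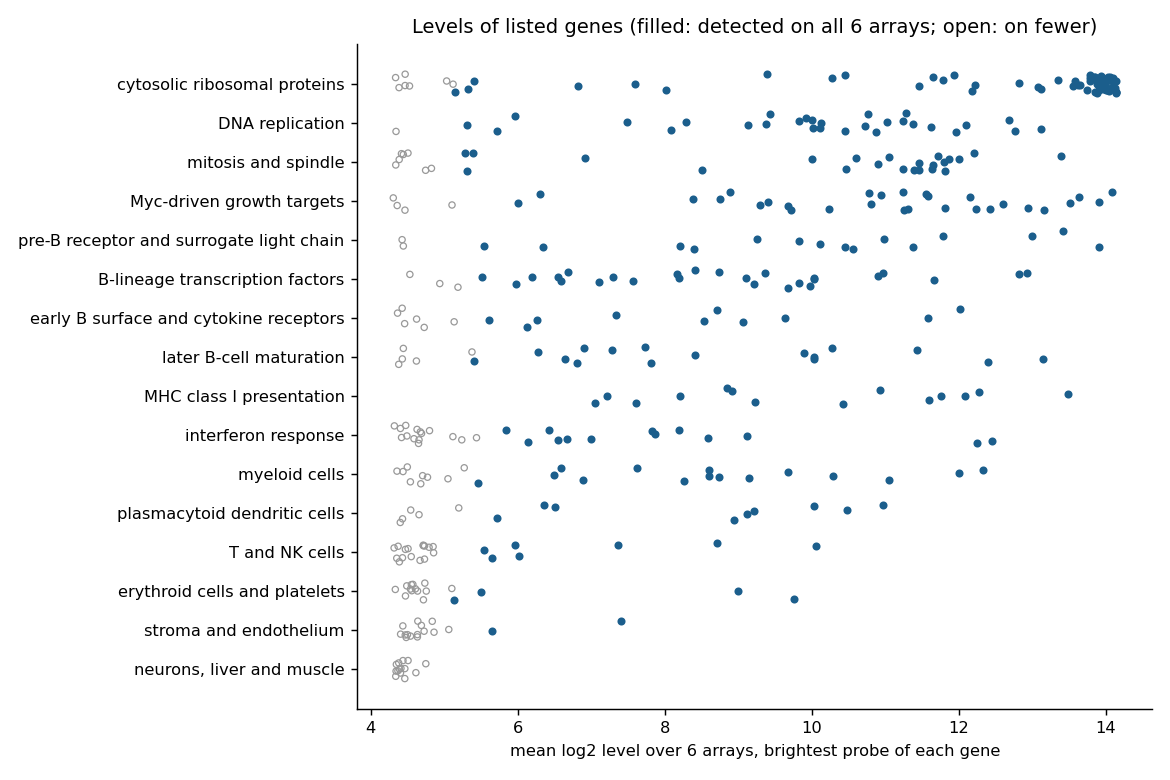
Mean log2 level over the 6 wildtype arrays for the brightest probe of each gene in 16 gene lists, filled where the probe was detected on all 6 arrays and open where on fewer; vertical scatter within a list has no meaning. Growth, replication and division genes lie mostly between 9 and 14, and genes of stroma, neurons, liver and muscle lie almost all near 4.5, the level of probes that were not detected.

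Components of the pre-B receptor and its signalling chain were present, in 15 of 17 listed genes with a probe. Ighm, the µ heavy chain, read 13.94, 13.86, 14.00, 13.92, 13.85 and 13.88 on wildtype 1 to 6, a mean of 13.91 ± 0.05. Cd79b, the signalling partner of the receptor, stood at 13.42 ± 0.09, and Vpreb3, which binds the µ chain inside the cell, at 13.00 ± 0.10. The SDs of these genes were at most 0.10, at levels where normalisation narrows the spread. The kinases and adaptors that act behind the receptor followed: Btk (11.78 ± 0.09), the phospholipase Plcg2 (11.38 ± 0.08), Vav1 (10.97 ± 0.07), Blk (10.46 ± 0.11), the adaptor Blnk (10.11 ± 0.13), Pik3ap1 (9.82 ± 0.16), Pik3cd (8.21 ± 0.05), Syk (6.34 ± 0.06) and Grb2 (5.55 ± 0.13). Vpreb2, a close copy of Vpreb1, and the kinase Lyn were detected on 0 arrays, and Cd79a had no matching row and was not analysed here.

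The surrogate light chain was the variable element of this list. Igll1 read 9.06, 9.61, 9.07, 9.70, 8.62 and 9.43 on wildtype 1 to 6 (mean 9.25 ± 0.41). Vpreb1 read 8.26, 8.69, 8.09, 8.92, 7.80 and 8.63 (mean 8.40 ± 0.42). Both were highest on wildtype 4, then wildtype 2 and 6, and lowest on wildtype 5. They were 2 of 23 expressed probes of the list with an SD of at least 0.3, which 6.18% of all expressed probes reached. Of the recombinase, Rag1 was at 8.25 ± 0.15 on all 6 arrays, Rag2 was detected on 1 array and Dntt, which adds bases at heavy chain joints, on 2. Of the end-joining genes Xrcc6 (12.69 ± 0.06), the recombination cofactor Hmgb2 (12.93 ± 0.12), the kinases Atm (10.08 ± 0.20) and Prkdc (5.97 ± 0.07), the polymerase Polm (7.56 ± 0.29), Nhej1 (6.86 ± 0.08), the ligase Lig4 (6.70 ± 0.16) and the nuclease Dclre1c (5.26 ± 0.34) were on all 6. Hmgb1, Xrcc5 and Xrcc4 were detected on 0 arrays.

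Several immunoglobulin segments were among the most variable genes. Igkc, the kappa constant region, was as bright as Ighm, at 14.01, 13.95, 14.08, 13.75, 13.90 and 13.80 (mean 13.91 ± 0.13), and Iglv1, a lambda variable segment, stood at 11.03 ± 0.30. Of 59 heavy chain variable segments named in the files 21 were on all 6 arrays and 31 on none, with a median SD of 0.194 among the 21. Of 27 kappa variable segments 12 were on all 6 and 9 on none. Their median SD was 0.441, and 6 of the 12 had an SD of at least 0.5, against 0.75% of the 9469 expressed genes. These sets differed in level, with a median of 6.34 for the 12 kappa segments, 7.49 for the 21 heavy ones and 8.19 for the 9469 genes. Dim probes vary more, and the part of level in the kappa spread was not tested. IGKV9-120 read 6.64, 6.04, 8.63, 6.41, 6.37 and 6.36, and IGKV3-2 read 7.41, 7.44, 8.95, 7.59, 7.46 and 7.34. Wildtype 3 alone was high for both, with the other 5 arrays close together. IGKV4-71 read 7.31, 5.15, 6.95, 5.27, 5.32 and 5.66, high on wildtype 1 and 3, and Igkv13-84 read 5.06, 6.93, 5.34, 4.94, 5.58 and 5.71, high on wildtype 2. Of heavy chain segments IGH-VJ558 varied most, at 10.77, 10.73, 10.35, 10.66, 12.42 and 11.63. Wildtype 5 and 6 were high, and its second probe gave the same order at the top, with 9.66 on wildtype 5 and 8.59 on wildtype 6 against 7.42 to 7.83 on the others. Segments of a family are near copies of each other, so a probe may read more than 1 of them, and the class of a segment is taken from its name in the files.

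Transcription factors of the B-lineage list, not all of them particular to B cells, were on all 6 arrays in 26 of 29 cases. Their median level was 8.92 and their median SD 0.169. The highest were the coactivator Pou2af1 (12.93 ± 0.08), the LIM-only protein Lmo4 (12.81 ± 0.04), Bach2 (11.67 ± 0.27), the E protein Tcf4 (10.96 ± 0.19), the zinc finger factor Ikzf1 (10.90 ± 0.12), Mef2c (10.04 ± 0.26), Spib (10.03 ± 0.14) and Irf4 (9.98 ± 0.15). Ebf1, the factor that opens the B-cell programme, read 8.70, 8.58, 8.87, 8.68, 8.57 and 9.01 (mean 8.74 ± 0.17), and the E protein Tcf3 stood at 7.30 ± 0.15. Pax5, which holds the commitment to the lineage, was detected on 4 arrays at a mean level of 4.94, Id2 on 5 and Erg on 0. In the middle of the range stood Sox4 (9.82), Foxp1 (9.67), Bcl11a (9.36), Irf8 (9.22), Gfi1 (9.10), Id3 (8.42), Lmo2 (8.20), Foxo1 (8.16), Pou2f2 (7.56) and Ikzf3 (7.11). Lef1 (6.69), Spi1 (6.60), Myb (6.55), Runx1 (5.94 to 6.65), Bcl6 (5.98) and Etv6 (5.52) were the lowest on all 6. Between samples Irf8 had the largest SD of the list (0.29), with wildtype 1 highest at 9.60 and wildtype 4 lowest at 8.74.

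Surface receptors of early stages were detected in part. Of early B genes 10 of 16 were on all 6 arrays: Cd72 (12.02 ± 0.08), Ly6d (11.58 ± 0.20), Cd93 (9.63 ± 0.11), Cd22 (9.07 ± 0.14), Cd2 (8.71 ± 0.11), the interleukin 7 receptor chains Il7r (8.54 ± 0.08) and Il2rg (7.34 ± 0.14), Cd24a (6.26 ± 0.51), Spn (6.13 ± 0.24) and Ptprc (5.62 ± 0.25). Flt3 and Kit, receptors of progenitors, were detected on 0 arrays, as were Bst1, Cd38 and Enpep, and Cd9 was detected on 5. Of genes of later maturation 16 of 21 were on all 6. Class II genes led them, with the invariant chain Cd74 at 13.14 ± 0.10, H2-Ab1 at 12.39 ± 0.12, H2-Eb1 at 11.43 ± 0.13, the peptide exchange chain H2-DMa at 10.27 ± 0.10, H2-Aa at 10.03 ± 0.33, H2-Ob at 9.89 ± 0.11, H2-DMb1 at 8.42 ± 0.20 and their activator Ciita at 7.81 ± 0.10. The survival receptor Tnfrsf13c stood at 10.03 ± 0.10, Cd55 at 7.74, Cd40 at 7.29, Fcrl1 at 6.81, the homing receptors Ccr7 at 6.65 and Cxcr5 at 5.41, Cd86 at 6.28 and Ms4a1, which encodes CD20, at 6.91 ± 0.25. The mature B-cell markers Cr2 (0 arrays) and Fcer2a (1 array), with Cd83 and S1pr1 (0 arrays), were not detected on all 6, and Ltb was detected on 5. Of 14 homing genes 11 were on all 6, among them Cd44 (10.55 ± 0.24), Icam2 (10.36 ± 0.14), Selplg (10.20 ± 0.22) and the chemokine receptor Cxcr4 (9.83 ± 0.25).

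Myc read 8.26, 8.38, 8.33, 8.76, 8.66 and 8.44 on wildtype 1 to 6, a mean of 8.47 ± 0.20 by 1 of its 2 probes; the second was detected on 0 arrays. The files do not say whether either probe reads the transgene. Its partner Max stood at 7.74 ± 0.13. Of the factors that compete for Max, Mxd4 was the brightest (11.15 ± 0.13), above Mxd3 (7.63 ± 0.26), Mga (5.80 ± 0.30), Mxd1 (5.75 ± 0.18), Mnt (5.47 ± 0.26) and Mxi1 (5.27 ± 0.10). Zbtb17, through which Myc represses genes, stood at 10.19 ± 0.08, Mlxip at 8.37 ± 0.13, Mycl at 5.77 ± 0.32 and Mlx at 5.18 ± 0.24, and Mycn was detected on 0 arrays. Levels of different genes come from different probes, so this order is one of signal only.

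Growth targets of Myc were on all 6 arrays in 29 of 33 genes, at a median level of 11.25. Npm1 led, followed by the nucleoside diphosphate kinases Nme1 (13.90 ± 0.11) and Nme2 (13.63 ± 0.12), the lactate dehydrogenase Ldha (13.51 ± 0.07), the translation factor Eif5a (13.16 ± 0.02) and the nucleolar Gar1 (12.94 ± 0.07). Eif5a read 13.15, 13.16, 13.17, 13.19, 13.14 and 13.13 and was among the 10 named genes of least spread at a level of at least 10. The other 9 were MTDNA_ND4, the proteasome subunit Psmb6, the electron carrier Etfa, the exosome subunit Exosc7, the phosphatase Ptp4a3, the oligosaccharyltransferase subunit Ost4, the lysyl-tRNA synthetase Kars, Ssr4 and Rpl24, with SDs between 0.012 and 0.025. The most variable growth targets were Nolc1 (SD 0.25), Pes1 (0.19) and Hspe1 (0.19). Rrs1 was detected on 4 arrays and Dkc1, Wdr12 and Sms on 0. The mean deviation of the 29 genes from their own means stayed between -0.05 and 0.03 on every array, a narrower range than for most lists.

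Genes of cell division were bright. DNA replication genes were on all 6 arrays in 29 of 30 cases at a median level of 10.13, led by the helicase subunits Mcm5 (13.12 ± 0.07) and Mcm4 (12.77 ± 0.07), with Rpa1 (12.68 ± 0.03), Pold1 (12.10 ± 0.07), Fen1 (11.96 ± 0.04) and Mcm6 (11.61 ± 0.08), and Pola1 was detected on 0. Genes of mitosis were on all 6 in 23 of 30 cases at a median of 11.39, led by the centromeric histone Cenpa (13.39 ± 0.08), Cdc20 (12.21 ± 0.09), Prc1 (11.73 to 12.15), Birc5 (11.86 ± 0.07), Kif22 (11.80 ± 0.15) and Nusap1 (11.79 ± 0.09). The most variable were Cenpf (SD 0.51), Ube2c (0.35) and Ccna2 (0.30), each at a level under 7. In G1 control 20 of 21 genes were on all 6, with Ccnd3 (12.17 ± 0.11) above Ccnd1 (9.87 ± 0.16) and Ccnd2 (6.99 ± 0.33) among D-type cyclins, the activator E2f2 at 12.13 ± 0.21, Cdk4 at 11.81 ± 0.06, Cdk2 at 11.69 ± 0.11 and E2f1 at 9.91 ± 0.08. Cdkn2b, an inhibitor of Cdk4, was detected on 0 arrays.

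Genes of the p53 and Arf pathway, which is known to restrain Myc-driven cells, were on all 6 arrays in 13 of 20 cases at a median level of 8.47. Trp53 itself read 10.54, 10.59, 10.64, 10.41, 10.35 and 10.41 (mean 10.49 ± 0.11). Cdkn2a, whose locus encodes Arf, read 7.03, 6.99, 7.43, 7.05, 7.30 and 7.15 (mean 7.16 ± 0.17). The p53 target Cdkn1a read 6.68, 6.92, 7.39, 6.80, 7.46 and 6.62 (mean 6.98 ± 0.36). Wildtype 3 and 5 were the highest for Cdkn1a and for this brightest probe of Cdkn2a. A dimmer probe of Cdkn2a on all 6 arrays read 6.91, 6.72, 6.84, 6.83, 7.35 and 7.07, highest on wildtype 5 and 6. Trp53inp1 (10.67 ± 0.09), the death effector Bax (10.23 ± 0.13), Mdm2, the ligase that degrades p53 (10.17 ± 0.10), Ccng1 (9.79 ± 0.17), Ei24 (9.11 ± 0.09), Bbc3 (8.47 ± 0.12), Gadd45a (7.91 ± 0.17), Zmat3 (5.57 ± 0.27), Mdm4 (5.57 ± 0.31) and Eda2r (5.24 ± 0.09) were on all 6 as well. Fas was detected on 3 arrays, Aen and Pmaip1 on 2, Phlda3 and Sesn2 on 1, and Perp and Btg2 on 0.

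Of the Bcl2 family 11 of 18 genes were on all 6 arrays. Mcl1, a survival protein, was the brightest, at 11.18, 10.92, 11.27, 11.20, 11.42 and 11.20 (mean 11.20 ± 0.16), and Bcl2l1 (5.53 ± 0.15) and Bcl2l2 (6.80 ± 0.18) were lower in signal. Bcl2 was detected on 5 arrays and Bcl2a1b on 5. Of the proteins that promote death, Bid (9.49 ± 0.12), Bcl2l11, which encodes Bim (8.38 ± 0.12), Bad (8.33 ± 0.04), Bok (6.12 ± 0.24), Bak1 (5.86 ± 0.17) and Bmf (5.27 ± 0.25) were on all 6 beside Bax and Bbc3. Bik was detected on 4 arrays, Bcl2a1d on 1, and Bcl2l10 and Hrk on 0.

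Metabolic, antigen presentation and chromatin genes followed. Glycolysis genes were on all 6 arrays in 14 of 16 cases at a median of 10.78, with Gapdh (12.96 ± 0.06), Tpi1 (12.89 ± 0.04) and Pkm (12.28 ± 0.08) behind Ldha, and class I presentation in 14 of 14 at a median of 9.83, with B2m (13.49 ± 0.17), H2-D1 (12.28 ± 0.10) and the immunoproteasome subunit Psmb8 (12.09 ± 0.10). Chaperones were on all 6 in 20 of 25 cases, with Hspa8 (13.70 ± 0.15) and Hsp90ab1 (13.37 ± 0.09) first. Of genes of chromatin silencing 20 of 26 were on all 6, led by Uhrf1, which guides maintenance methylation (12.84 ± 0.10), Suz12 (12.18 ± 0.09) and Trim28 (12.05 ± 0.14), and Dnmt3a and Suv39h2 were among the 6 that were not. Smchd1, the gene that defines the series, read 9.48, 9.30, 9.38, 9.37, 9.62 and 9.64 by its brightest probe (mean 9.47 ± 0.14), and 3 of its 5 probes were on all 6 arrays. Immediate early genes were on all 6 in 9 of 21 cases and interferon response genes in 13 of 28. Xist, the RNA of the inactive X, and its antisense partner Tsix were detected on 0 arrays, and the Y-linked Ddx3y (10.04 ± 0.20), Eif2s3y (9.04 ± 0.28), Kdm5d (6.44 ± 0.25) and Uty (5.62 ± 0.16) on all 6.

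Markers of other cell types were present at a range of levels. In a bulk sample fewer cells of a type and less RNA per cell cannot be told apart. Myeloid genes were on all 6 arrays in 15 of 24 cases, led by the neutrophil proteins S100a8 (12.32 ± 0.25) and S100a9 (11.04 ± 0.32), Cst3 (11.85 to 12.11) and the lysozyme Lyz1 (10.29 ± 0.41), while Csf1r, Cebpe, Itgam, Adgre1, Mmp8 and Cd14 were detected on 0. Ly6c1 (9.68), Ltf (9.15), Camp (8.74), Lyz2 (8.60), Lcn2 (8.60), Ngp (8.26), Mpo (7.62), Chil3 (6.88), Mmp9 (6.59), Cd68 (6.49) and Prtn3 (5.47) were the others on all 6, and Ctsg and Csf3r were detected on 4 and Fcgr3 on 1. Plasmacytoid dendritic cell genes were on all 6 in 9 of 14 cases, among them the surface receptor Siglech (8.95 ± 0.55), Bst2 (9.11 ± 0.61), Cox6a2 (10.48 ± 0.51), Pacsin1 (6.50 ± 0.50), Klk1 (6.36 ± 0.63) and Lair1 (5.72 ± 0.31), with Tlr7 on 4, Irf7 on 1 and Runx2, Tlr9 and Ccr9 on 0. The other 3, Tcf4, Spib and Irf8, are also in the list of B-lineage factors.

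T and NK genes were on all 6 arrays in 7 of 23 cases. Cd8b1, a chain of the CD8 coreceptor, read 10.21, 10.08, 10.09, 10.11, 9.93 and 9.96 (mean 10.06 ± 0.10), and its partner Cd8a was detected on 0 arrays. Prf1 (8.72 ± 0.36), Lck (7.37 ± 0.19), Klrd1 (6.02 ± 0.49), Zap70 (5.97 ± 0.24), Thy1 (5.65 ± 0.34) and Nkg7 (5.55 ± 0.31) were the others. The defining chains of the T-cell receptor complex were not on all 6: Cd3d was detected on 3 arrays, Cd3g and Cd4 on 1, and 12 genes on 0 (Cd3e, Cd247, Cd8a, Lat, Klrb1c, Cd28, Tcf7, Bcl11b, Klrk1, Gata3, Gzmb and Ncr1). Erythroid and platelet genes were on all 6 in 4 of 17 cases: Hbb-b1, Hba-a1, Slc4a1 (5.50 ± 0.26) and Klf1 (5.14 ± 0.17). Alas2, Gata1, Itga2b, Pf4, Ppbp, Tfr2, Car1 and Hbb-b2 were on 0, Car2 was on 4, and Gp9 and Epor were on 1. Plasma cell genes were on all 6 in 8 of 11 cases, with Mzb1 (13.12 ± 0.11) and Xbp1 (10.11 ± 0.17) bright, Irf4, Sec11c (9.70 ± 0.18), Creld2 (9.13 ± 0.18), Fkbp11 (8.39 ± 0.11), IGHG (6.93 ± 0.31) and Sdc1 (5.17 ± 0.11), and Prdm1, Jchain and Tnfrsf17 on 0. Stem and progenitor genes were on all 6 in 5 of 14 cases (Ly6a, Hoxa7, Meis1, Cd48 and Mecom), stroma and endothelium in 2 of 16 (Pecam1 and Cdh5) and neurons, liver and muscle in 0 of 14, of which Tnnt3 was detected on 2 arrays and 13 on none.

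Levels were close between the samples. Pearson's r over the 13711 expressed probes ran from 0.991 to 0.994 over the 15 pairs of arrays, as a description across probes that share arrays and normalisation. The median SD of a probe was 0.145, with 5% of probes under 0.062 and 5% above 0.313, and it fell from 0.205 in the dimmest 25% of probes to 0.099 in the brightest 25%. For 6407 probes at a level of at least 8 the SD between arrays was a median of 1.6 times the standard error from the beads within an array. An SD of at least 0.5 was reached by 97 probes (0.707%) and a range of at least 1, which is 2-fold, by 304 (2.22%). Of the 97 probes 39 carried only provisional names, and 28 named ones belonged to no list. Of the expressed probes of the erythroid list 10 of 13 were among the 97, 9 of them probes of Hbb-b1, of the plasmacytoid dendritic list 5 of 11, of the immunoglobulin list 8 of 43 and of the myeloid list 3 of 19.

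**Figure D4:**
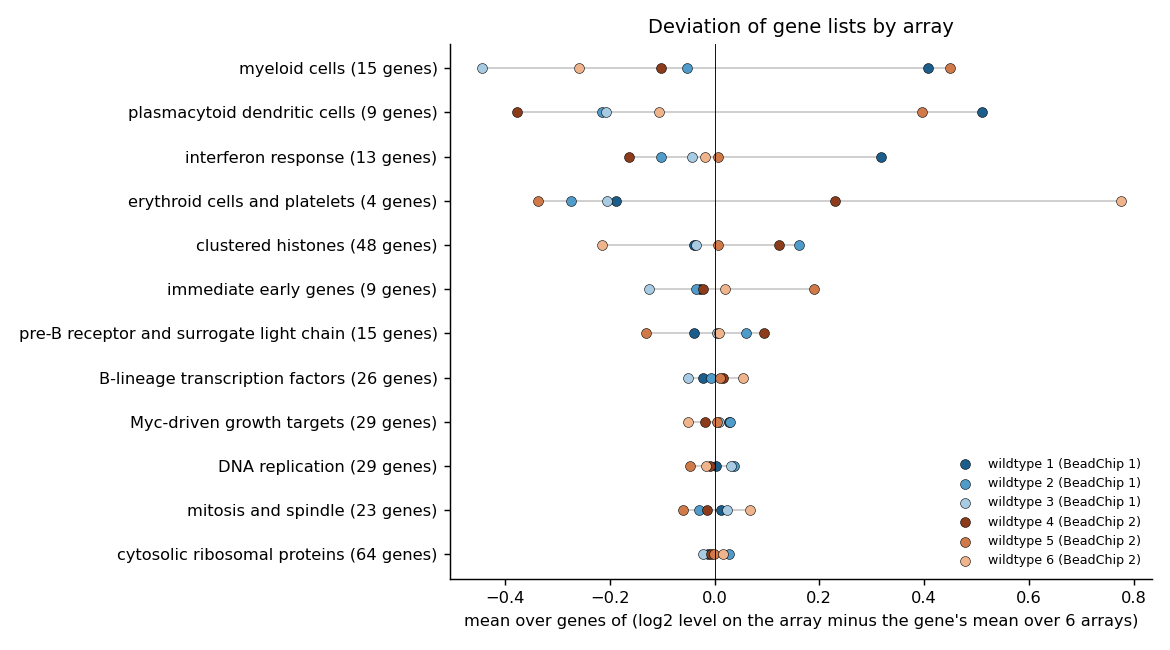
For 12 gene lists, the mean over their genes of the log2 level on each array minus that gene's mean over the 6 arrays; each point is 1 array, blue for BeadChip 1 and brown for BeadChip 2, and the grey line is the range. Myeloid and plasmacytoid dendritic cell genes were high on wildtype 1 and 5, erythroid genes on wildtype 6, and ribosomal protein, replication and growth genes lay within 0.1 of 0 on every array.

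Genes of myeloid and plasmacytoid dendritic cells were mostly high on wildtype 1 and 5. Siglech read 9.56, 8.54, 8.75, 8.39, 9.70 and 8.73, and wildtype 1 and 5 were apart from the other 4. Ly6c1, a surface protein of monocytes and dendritic cells, read 10.83, 9.29, 9.24, 9.04, 10.24 and 9.41. Wildtype 1 and 5 were the highest 2 arrays in 12 of 15 myeloid genes and in 7 of 9 plasmacytoid dendritic genes, against 7.92% of the 9469 expressed genes. The same pair was highest in 3 of 7 T and NK genes, 2 of 5 stem and progenitor genes and 6 of 20 chaperone genes. T and NK genes deviated by a mean of 0.16 on wildtype 1, 0.14 on wildtype 5 and -0.31 on wildtype 6. Of the other named genes of large spread, D13Ertd608e (SD 0.64), Fcer1g (0.59) and Mpeg1 (0.59) had wildtype 1 and 5 as their highest 2 arrays as well. Klk1 and Bst2, also of large spread, are already counted among the plasmacytoid dendritic genes. Summed over the whole list of 24 genes on a linear scale, myeloid signal ran from 12523 on wildtype 3 to 20092 on wildtype 5, with 19817 on wildtype 1. For 14 plasmacytoid dendritic genes the sum ran from 5100 on wildtype 4 to 8419 on wildtype 1, with 7843 on wildtype 5 and at most 6084 on the other arrays. Without wildtype 1 and 5 the median SD of the myeloid genes was 0.222 in place of 0.413. That of the plasmacytoid dendritic genes was 0.211 in place of 0.499, and that of all expressed probes 0.132 in place of 0.145. These arrays were left out because they had been seen to be highest in these genes, so a fall in SD was built in. Where these genes move with a level reported here, their part in it was not tested.

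Wildtype 1 was the highest array in 8 of 13 interferon response genes, against 19.1% of the 9469 expressed genes. Gbp2 and Stat2 were highest on wildtype 5, Gbp3 and Ddx58 on wildtype 6 and Zbp1 on wildtype 2. The mean deviation of the 13 genes was 0.32 on wildtype 1 and between -0.16 and 0.01 on the other arrays. Ly6a, a surface protein raised by interferon and on progenitors, read 9.65, 8.11, 8.51, 7.87, 8.86 and 8.52. Bst2 read 9.99, 8.45, 8.93, 8.74, 9.73 and 8.84, and the GTPase Igtp read 7.76 on wildtype 1 and 6.62 to 7.04 on the others. Wildtype 1 was the highest for all 3, and Bst2 was also high on wildtype 5, where the plasmacytoid dendritic list to which it belongs was high. Lgals3bp followed the same order at the top, at 7.22 on wildtype 1 and 6.39 on wildtype 5, with 5.54 to 6.16 on the others.

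Haemoglobin was highest on wildtype 6. Hbb-b1, a beta globin chain, read 9.37, 9.28, 9.57, 10.06, 9.33 and 10.90 by its brightest probe, and Hba-a1, an alpha chain, read 8.78, 8.48, 8.83, 9.33, 8.29 and 10.30. Wildtype 6 was the highest for both and wildtype 4 the next. All 10 expressed probes of Hbb-b1 were highest on wildtype 6, as were all 4 expressed genes of the erythroid list, Slc4a1 by a narrow margin (5.82 against 5.80 on wildtype 4), against 14.7% of the 9469 expressed genes. The erythroid gene Alas2 was detected on 0 arrays, and copies of the globin genes are alike enough for a probe to read more than 1.

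Histone genes were most often lowest on wildtype 6. Of 48 clustered histone genes on all 6 arrays 32 were lowest on wildtype 6, against 18.4% of the 9469 expressed genes, and in 23 wildtype 2 and 4 were the highest 2, against 7.12%. Their mean deviation was 0.16 on wildtype 2 and 0.12 on wildtype 4, and fell to -0.21 on wildtype 6. H4c2, an H4 gene, read 7.28, 7.89, 7.55, 7.70, 7.17 and 6.76, the largest SD of the list (0.41), and H4c14 read 7.26, 7.51, 7.62, 7.51, 7.50 and 6.71. Wildtype 6 was lowest for both. The 6 brightest histone genes, H2ac13, H2ac23, H2ac10, H2ac12, H2ac15 and H2ac20 (13.94 to 14.07), were not lowest there, apart from H2ac20; H2ac13 was high there at 14.21. Histone copies are nearly identical, so each value may come from several of them. On the same array the replication genes deviated by -0.02 and the mitosis genes by 0.07.

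Wildtype 5 was the highest array in a further set of genes. It was apart from all the others in Tsc22d3 and Dnajb1, while Hsph1 was high on wildtype 1 as well. Tsc22d3, a target of glucocorticoid hormones, read 9.18, 9.15, 9.68, 9.23, 11.05 and 9.0, and its second probe read 7.98 on wildtype 5 against 5.81 to 6.53 on the others. The heat shock partner Dnajb1 read 11.08, 11.21, 11.23, 11.23, 11.75 and 11.11, and the chaperone Hsph1 read 10.87, 10.25, 10.37, 10.35, 11.10 and 10.15. Wildtype 5 was the highest in all of these and in 9 of 20 chaperone genes and 5 of 9 immediate early genes, against 16.8% of the 9469 expressed genes. Klf2, a factor of quiescent lymphocytes, read 10.61, 11.01, 10.81, 10.75, 11.28 and 10.47, highest on wildtype 5 and next on wildtype 2. Vpreb1 and Igll1 were lowest on wildtype 5 but next to highest on wildtype 2, and a link with Klf2 was not tested. By the brightest probe of each gene, the largest SD of any named gene belonged to Xlr4a, an X-linked lymphocyte-regulated gene. It read 9.46, 11.13, 10.97, 10.46, 9.82 and 8.52 (mean 10.06 ± 0.99). Its values were spread over the whole range with no array apart, and were highest on wildtype 2 and 3 and lowest on wildtype 6. A dimmer probe of Ide had an SD of 1.04, against 0.10 for the brightest probe of that gene.

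**Figure D5:**
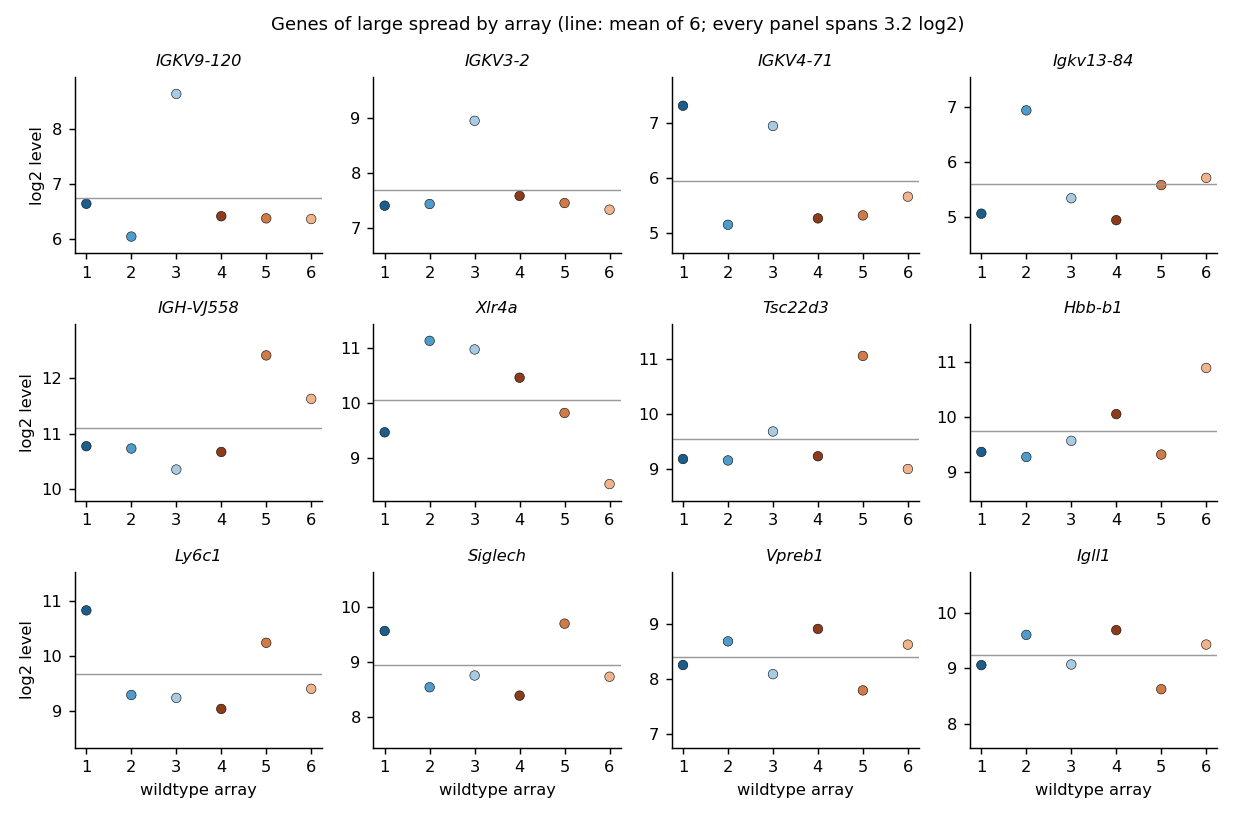
Log2 level on each of the 6 wildtype arrays for 12 genes, 10 of them among the most variable and Vpreb1 and Igll1 from the pre-B receptor list; blue points are BeadChip 1, brown points BeadChip 2, and the line is the mean. Kappa segments are high on 1 or 2 arrays (wildtype 3 for IGKV9-120 and IGKV3-2), Tsc22d3 on wildtype 5, Hbb-b1 on wildtype 6, and Ly6c1 and Siglech on wildtype 1 and 5.

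The 2 BeadChips were compared within the wildtype samples, the only split the labels offer. Of 13711 probes tested 15 (0.109%) differed at an adjusted p under 0.05 (limma with Benjamini-Hochberg adjustment), 0 higher and 15 lower on BeadChip 2, and 1313 had an unadjusted p under 0.05. BeadChip and the samples on it cannot be told apart. Of the 15 probes 9 carried only provisional names and 1 a number in place of a name. EG384596 fell by 1.48 on the log2 scale (SE 0.14, limma adjusted p = 0.0082), with 8.17, 8.0 and 8.21 on BeadChip 1 and 6.39, 6.90 and 6.63 on BeadChip 2. The mitochondrial probe MTDNA_ND3 fell by 1.11 (SE 0.11, limma adjusted p = 0.0087), and Eef1a1, a translation elongation factor, by 0.88 (SE 0.11, limma adjusted p = 0.023). Pramel4 fell by 0.87 (SE 0.11, limma adjusted p = 0.023) and the chromatin protein Hmgn2 by 0.78 (SE 0.10, limma adjusted p = 0.023). For Eef1a1, Pramel4 and Hmgn2 these were dim probes, with BeadChip means of 5.69 to 7.74, and the brighter probes of the same genes, at 13.01 to 14.04, had log2 differences between -0.10 and -0.07 and did not pass.

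No gene of the lists described above passed by its brightest probe. MTDNA_ND3, which passed, was not in the respiratory chain list. The BeadChip groups did not overlap in 1955 probes (14.3%), and in 4 of 15 pre-B receptor genes, 6 of 29 growth targets, 15 of 64 ribosomal protein genes and 0 of 15 myeloid genes. Cenpf read 6.35, 6.49 and 6.61 on BeadChip 1 and 7.13, 7.19 and 7.70 on BeadChip 2, a difference of 0.85 (SE 0.16, limma adjusted p = 0.11), and its other 2 probes differed by 0.15 and -0.05. Cd24a differed by -0.86 (SE 0.14, limma adjusted p = 0.076). The median difference over all probes was -0.0042. With median scaling in place of quantile normalisation that median was 0.19, and 125 probes were then higher and 25 lower, so the direction of a small BeadChip difference depends on the scaling. Without wildtype 1 or without wildtype 4 no probe passed (limma, 1142 and 1139 with an unadjusted p under 0.05), and without each of the others 7 to 10 did.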

How the data were processed

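Total RNA from 6 samples of Smchd1 wildtype Eµ-Myc pre-B cells was read on Illumina mouse arrays. The deposited intensity of a probe is the mean over its beads, with the bead number and bead SD beside it, exported with GenomeStudio 1.8.0 per the file headers. The deposited detection values are a fraction per probe against negative controls, and the detection p is 1 minus that fraction; a second table that the authors deposited gives it as a p-value. The authors made the log2 values with neqc of limma from all 12 arrays together, per the read-me they deposited: normexp background correction on negative controls, an offset of 16 and quantile normalisation. Rerun here with 936 negative control probes, neqc gave the same values to 5.0e-09. Per the submitters' processing notes the software was R 2.15.1 with limma 3.12.1, and BeadStudio. No genome build is named in the sources.

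Probes were named through RefSeq's gene table by current symbol (9405 of the 13711 expressed probes) or synonym (2682), and otherwise kept the name in the file (1624). A gene is described by its brightest probe detected on all 6 arrays, and a gene with none by its brightest probe. BeadChip 2 was compared with BeadChip 1 by limma 3.58.1 in R 4.3.3 with Benjamini-Hochberg adjustment. This comparison was tested on simulated data with 13711 probes and noise drawn independently for each probe. It recovered 26.9% of changes of 0.5, 85.1% of changes of 1 and 100% of changes of 2 on the log2 scale, with 3 false calls. Patterns that many probes share on an array were not simulated. Tables and figures were made with python 3.11.15, pandas 2.3.3, numpy 2.4.6 and matplotlib 3.10.9. The precision of the levels is limited by the number of arrays.

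The members and gene lists were chosen with earlier results of these data known, and the pattern that picks immunoglobulin names was trimmed after the files were seen. Genes named are the 20 of highest level, the 20 of largest SD, the 10 of smallest SD at a level of at least 10, the 6 largest BeadChip differences that passed, up to 6 genes by level and 3 by SD of each list, and all members of the B-lineage, Myc network, p53, Bcl2 and other-cell-type lists. Symbols beginning with LOC, those beginning with Gm, BC, AI or AU and a digit, and those ending in Rik were treated as provisional names. Smchd1, Xist, Tsix, Dnmt3a, Suv39h2, Cdkn2b, Pola1 and the ribosomal protein genes that were not on all 6 arrays, with a few list members beyond these limits, were named after their values were seen. Promoters printed are those of the brightest genes of a list that hold the match, for histones TATAAA on the gene's own strand between 50 and 5 bases before the start. Listed genes with no matching row (among them Cd79a, Ighd, Isg15, Cd5, Trbc2, Elane, Ly6g and Hbb-bt) were not analysed here, and a few list members are not reported here. Alternatives changed the normalisation, background correction, detection rule, probes tested, error model and arrays used.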

Additional observations from a re-analysis of the deposited data

Results flagged for a closer look

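Of 405 results examined 28 (6.91%) had 1 array apart from the other 5. The results were levels of named genes, mean deviations of lists and measures of each array (probes detected, raw intensity over negative controls and beads per probe). An array was apart when its gap to the nearest other array, divided by the range of the 6, exceeded Dixon's critical value for 6 arrays. Chance gives about 1 in 20, and over all 13711 expressed probes 708 (5.16%) met the same rule. Each value below is the log2 level, or the mean log2 deviation of a list, on that array against the range of the others, with the gap over the range in parentheses. High on wildtype 1, Uhrf1 read 13.03 against 12.77 to 12.83 (0.763), the mean deviation of the interferon response list read 0.32 against -0.16 to 0.01 (0.647) and H2-K1 read 9.28 against 8.63 to 8.86 (0.636). On the same array Igtp read 7.76 against 6.62 to 7.04 (0.634). Low on wildtype 1, Zfp277 read 10.25 against 10.54 to 10.64 (0.735), the mean deviation of the zinc finger Zfp genes list read -0.05 against 0.00 to 0.02 (0.728) and Atp5j2 read 13.30 against 13.42 to 13.49 (0.63). On the same array Sox4 read 9.54 against 9.80 to 9.94 (0.63). High on wildtype 2, Mrpl23 read 12.80 against 12.62 to 12.69 (0.632). High on wildtype 3, IGKV3-2 read 8.95 against 7.34 to 7.59 (0.845), IGKV9-120 read 8.63 against 6.04 to 6.64 (0.77) and Cd22 read 9.34 against 8.95 to 9.06 (0.703). On the same array Bbc3 read 8.70 against 8.38 to 8.48 (0.699) and Spib read 10.30 against 9.92 to 10.06 (0.631). Low on wildtype 3, Mrps15 read 7.46 against 7.83 to 7.99 (0.702). High on wildtype 4, Mxi1 read 5.46 against 5.19 to 5.28 (0.676), Mdm2 read 10.37 against 10.09 to 10.18 (0.671) and Psmb6 read 11.91 against 11.86 to 11.88 (0.637). Low on wildtype 4, Kdm5d read 5.95 against 6.47 to 6.68 (0.71). High on wildtype 5, Dnajb1 read 11.75 against 11.08 to 11.23 (0.78), Mga read 6.39 against 5.57 to 5.78 (0.747) and Ccnd1 read 10.19 against 9.76 to 9.89 (0.692). On the same array Tsc22d3 read 11.05 against 9.0 to 9.68 (0.668), Junb read 7.54 against 7.29 to 7.38 (0.666) and the mean deviation of the later B-cell maturation list read 0.14 against -0.06 to 0.01 (0.635). Low on wildtype 5, Polm read 6.99 against 7.60 to 7.79 (0.756). High on wildtype 6, Klf1 read 5.48 against 5.04 to 5.13 (0.787) and Gbp3 read 8.01 against 7.79 to 7.86 (0.658). The kappa segments IGKV3-2 and IGKV9-120 shared wildtype 3, and the globin regulator Klf1 shared wildtype 6 with the globin genes. The part of the other cell types' genes, whose values by array stand above, in these levels was not tested.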

How the results depend on the processing

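Of 13711 probes on all 6 arrays, 12031 remained at a detection p under 0.01, 16041 probes were detected on at least 3 arrays, and leaving out 1 array gave 13798 to 13980. Between 95 and 100 of the 100 brightest probes were kept under every alternative run (other scaling, no background correction, the median, and each array left out). The levels of 49 genes that the rules name moved by more than 1 SD in 1 case with median scaling, 7 with neqc of the 6 arrays alone and 15 without background correction. The median SD of 0.145 was 0.234 with median scaling, 0.0954 without background correction, 0.137 within BeadChips, 0.132 without wildtype 1 and 5 (an alternative chosen after seeing the data) and 0.139 to 0.147 with 1 array left out. At a level of at least 8 it was 0.111. The 97 probes with an SD of at least 0.5 became 77 without wildtype 1 and 5 and 100 without wildtype 6, which were likewise added later. The 15 probes that differed between BeadChips became 150 with median scaling, 41 with an intensity trend in the error (13 higher and 28 lower) and 0 when all 45281 probes were tested (limma, 3543 with an unadjusted p under 0.05). With 1 array left out they were 0 to 10. Fits by neqc of the 6 arrays alone, without background correction, on probes detected on at least 3 arrays, with 1 probe per gene and with array weights gave 13 to 21. For the median scaling and the intensity trend the cause was not tested; the fit over all probes adjusts over more probes, and a fit with an array left out has fewer samples. No paired analysis was possible because the replicate numbers are shared only between wildtype and null samples, which are not compared here, and no label pairs the arrays of the BeadChips. Dim probes vary more, levels near 5 lie at the edge of detection, and the order of the brightest probes is limited by the ties that quantile normalisation makes.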
